A study of Mus musculus with 6 samples.

Results

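Complex I, the NADH dehydrogenase of the mitochondrial inner membrane, was followed through the genes of its nuclear-encoded subunits and of its assembly factors in infarcted mouse hearts with and without the atypical chemokine receptor ACKR4. Members were taken by name: symbols that begin with Nduf followed by a, b, c, s or v and then a digit or f, without -ps, and with at least 10 reads summed over all libraries. The rule found 47 of the 54532 genes in the count table, and all 47 were among the 14406 genes abundant enough to be tested. They were 35 subunits, 8 assembly factors (Ndufaf1 to Ndufaf8), 2 genes that keep a complex I name although their products are now assigned to complex IV (Ndufa4 and Ndufa4l2), and 2 annotated processed pseudogenes (Ndufb4c and Ndufs6b). The last 4 are given apart.

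RNA came from hearts of C57BL/6 mice, 8 to 10 weeks old, at day 14 after myocardial infarction (MI). There were 3 libraries from wild-type mice (WT) and 3 from ACKR4 knockout mice (ACKR4_KO), and infarction is shared by both groups. Neither the knockout allele, the part of the heart sampled, nor whether each library was 1 animal is given in the labels, so p-values measure only the spread between these libraries. ACKR4 is a scavenging receptor that takes up chemokines such as CCL19, CCL21 and CCL25 without signalling like a classical chemokine receptor.

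Complex I passes electrons from NADH to ubiquinone and pumps protons across the inner membrane, which feeds the ATP synthase, and heart muscle, packed with mitochondria, carries a large amount of it. Its core subunits hold the flavin and the iron-sulfur clusters or form the proton channels, and the channel-forming ones are encoded in mitochondrial DNA. Accessory subunits surround the core and are needed for its assembly and stability, while assembly factors help to build the arms and are not part of the finished enzyme. The matrix arm has an N module, where NADH is oxidised, and a Q module, where ubiquinone is reduced, and the membrane arm has a proximal and a distal part.

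Libraries held between 9422462 and 13910358 reads. For Ackr4 itself, 165, 151 and 169 reads were counted in WT and 4, 1 and 12 in ACKR4_KO, so that the libraries went with their labels. Even this difference missed the threshold (edgeR, adjusted p = 0.0990). Spread was larger in the knockout group: genes varied between libraries by 11.7% in WT and by 26.8% in ACKR4_KO (edgeR's common biological coefficient of variation). Cardiomyocyte genes were abundant in all libraries, with 12 markers summing to 37730 to 47300 CPM (counts per 1e6 scaled reads) in WT and 46740 to 65490 CPM in ACKR4_KO. Lung epithelium markers summed to 38.2 to 229 CPM in WT and 0.323 to 1.83 CPM in ACKR4_KO, where Sftpc, Scgb1a1 and Cldn18 had 0 reads. Fast skeletal muscle markers summed to 85.2 and 110 CPM in WT replicates 2 and 3 and to between 2.42 and 8.61 CPM in the other libraries. The part of these markers in the results below was not tested.

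All 35 subunits had a higher average level in ACKR4_KO than in WT, but none passed the test. The log2 fold changes ran from 0.17 to 1.42 with a median of 0.44, against a median of 0.01 over all genes tested, of which 52% were higher. With edgeR's quasi-likelihood test and Benjamini-Hochberg adjustment over all genes, 0 of the 35 had an adjusted p under 0.05 (the smallest was 0.650, for Ndufa5), and the same test called 0% of all genes. DESeq2 also called 0 of the 35, while it called 0.271% of all genes. At an unadjusted p under 0.05, 18 subunits were counted, all higher in ACKR4_KO, where 3.81% of all genes were higher, 3.64% lower and 7.45% either at that level. That count was 3 without WT replicate 1, 3 without WT replicate 3 and 5 without ACKR4_KO replicate 2. The 3 ACKR4_KO libraries lay above the 3 WT libraries for 8 subunits and below them for 0. Over all genes, 6.53% were apart in the higher direction and 7.63% in the lower.

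The subunits stood differently in the 3 knockout libraries. In ACKR4_KO replicate 1 they were close to WT: 10 of 35 lay above all WT libraries, where 28.2% of all genes did, and the median log2 difference from the WT mean was 0.07. In ACKR4_KO replicate 2 all 35 lay above all WT libraries, where 35.4% of all genes did, with a median of 0.66 and a narrow spread among subunits (SD 0.131). In ACKR4_KO replicate 3 the count was 28 of 35, where 34.2% of all genes did, with a median of 0.51 and a wide spread (SD 0.542), from -0.24 for Ndufs1 to 2.45 for Ndufa12. Summed over the 35 subunits, the level was 7519, 8292 and 6985 CPM in WT and 8018, 11990 and 10410 CPM in ACKR4_KO. The shares of all reads that fell on the 47 members were 0.844%, 0.942% and 0.806% in WT and 0.890%, 1.17% and 1.15% in ACKR4_KO. Such shares are scaled by the library total only and move with its other reads, of which mitochondrially encoded genes took 15.8% to 21.4%. The plot of members by library shows the members in all 6 libraries.

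**Figure D1:**
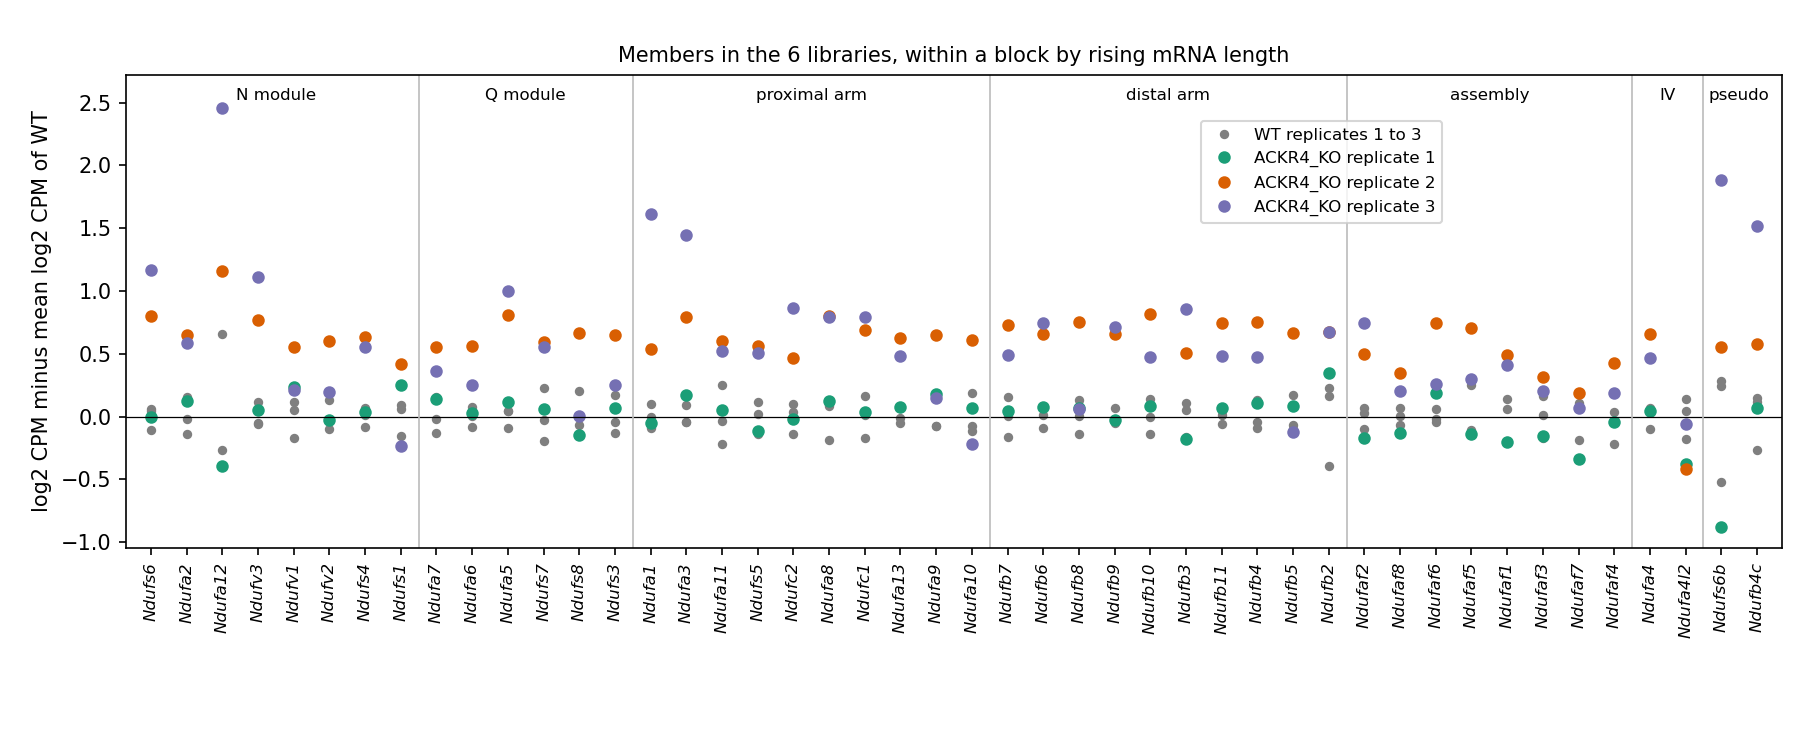
Log2 CPM of the members minus the mean log2 CPM in WT (y axis, log2 units), with 1 point per library and the members along the x axis grouped by arm or class and, within a group, by rising transcript length (grey, the 3 WT libraries). Subunits sit near 0 in ACKR4_KO replicate 1 (median 0.07), together at a median of 0.66 in replicate 2, and between -0.24 and 2.45 in replicate 3.

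The 7 nuclear-encoded core subunits, which carry the redox centres, had smaller differences than the accessory ones. Their median log2 fold change was 0.28, against 0.47 for the accessory subunits. An unadjusted p under 0.05 was reached by 0 of 7 core and 18 of 28 accessory subunits. Over all genes, 7.45% reached it in either direction and 3.81% in the higher direction. Both groups had a median of 0.07 against the WT mean in ACKR4_KO replicate 1 and stood at 0.60 and 0.66 in replicate 2, whereas in ACKR4_KO replicate 3 the core median was 0.20 and the accessory median 0.57. Core transcripts are also longer, with a median of 1623 bases against 747.5. With a trend on length and GC content removed, the medians of the log2 fold change were 0.30 and 0.40, and those in replicate 3 were 0.11 and 0.47. The difference between core and accessory subunits was not tested.

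In the N module, Ndufv1, the flavin-binding subunit that takes electrons from NADH, stood at 484, 507 and 415 CPM in WT and 548, 686 and 540 CPM in ACKR4_KO. It was the 1 core subunit of 7 whose groups did not overlap, where 6.53% of all genes were apart in the higher direction. Its log2 fold change was 0.34 (SE 0.16, adjusted p = 0.682 by edgeR's quasi-likelihood test), and it was 0.22 without ACKR4_KO replicate 2. Ndufs1, the large iron-sulfur subunit that follows it, stood at 391, 399 and 335 CPM in WT and 445, 501 and 318 CPM in ACKR4_KO. ACKR4_KO replicate 3 was thus the lowest of the 6 libraries for Ndufs1, whose log2 fold change was 0.17 (SE 0.19). That value was 0.34 without ACKR4_KO replicate 3, 0.03 without ACKR4_KO replicate 2 and 0.09 without WT replicate 3. Ndufv2, which holds a further iron-sulfur cluster, stood at 325, 364 and 310.5 CPM in WT and 326, 505 and 381 CPM in ACKR4_KO, and its groups overlapped.

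The Q module holds the ubiquinone site and the last iron-sulfur clusters of the chain. Ndufs7, the subunit of the terminal cluster next to ubiquinone, had 298, 356 and 266 CPM in WT and 317, 460 and 447.5 CPM in ACKR4_KO, with replicates 2 and 3 both above WT. Ndufs3, one of the first subunits to enter the growing Q module, had 214, 248 and 201 CPM in WT and 231, 346 and 261.5 CPM in ACKR4_KO. For Ndufs8, an iron-sulfur protein of the Q module, values were 168.5, 204 and 160.0 CPM in WT and 159, 280.1 and 177 CPM in ACKR4_KO. Ndufs8 had a log2 fold change of 0.21 that was -0.07 without ACKR4_KO replicate 2, 0.37 without ACKR4_KO replicate 1 and 0.32 without WT replicate 2.

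Ndufa5, an accessory subunit on the Q module, had the smallest p of all members. It stood at 272, 272 and 248 CPM in WT and 287, 462 and 528 CPM in ACKR4_KO, with every ACKR4_KO library above every WT library. The log2 fold change was 0.69 (SE 0.22, adjusted p = 0.650 by edgeR's quasi-likelihood test), and it stayed between 0.51 and 0.91 under every alternative run.

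Among accessory subunits of the membrane arm, Ndufa3, a small single-span protein of the proximal arm, stood at 143, 157 and 143 CPM in WT and 166, 255 and 401 CPM in ACKR4_KO, with no overlap. Its log2 fold change was 0.89 (SE 0.29, adjusted p = 0.661), and it was 0.52 without ACKR4_KO replicate 3. Ndufa8, a cysteine-rich protein on the intermembrane side, stood at 240, 242 and 199 CPM in WT and 246, 395 and 392 CPM in ACKR4_KO. Its groups did not overlap, although ACKR4_KO replicate 1 lay just above the highest WT library, and the log2 fold change was 0.60 (SE 0.20, adjusted p = 0.661). Ndufb6, a subunit of the distal arm, stood at 92.7, 96.5 and 86.4 CPM in WT and 96.5, 145 and 154 CPM in ACKR4_KO, so that replicate 1 and the highest WT library differed by less than the rounding. Ndufb10, the most abundant distal subunit, had 331, 365 and 301 CPM in WT and 351.5, 583 and 460.0 CPM in ACKR4_KO, and ACKR4_KO replicate 1 lay within the WT range. Ndufa10, a nucleoside kinase-like protein of the proximal arm, had 378, 452 and 367 CPM in WT and 418, 605 and 342 CPM in ACKR4_KO. ACKR4_KO replicate 3 was the lowest library for Ndufa10, and its log2 fold change of 0.19 was -0.07 without ACKR4_KO replicate 2, 0.36 without ACKR4_KO replicate 3 and 0.29 without WT replicate 2.

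Grouped by arm, the medians of the log2 fold change were close to each other. They were 0.45 for the 8 N module subunits and 0.34 for the 7 of the Q module. For the 10 of the proximal arm the median was 0.45, and for the 10 of the distal arm 0.46. Ndufa9, with a log2 fold change of 0.34, was counted in the proximal arm here, not in the Q module. Every one of the subunits in each arm was higher on average. In ACKR4_KO replicate 3 the Q module stood lowest, with a median of 0.25 against 0.57, 0.66 and 0.48 for the other arms in that order, and in ACKR4_KO replicate 2 the medians of the arms ran from 0.62 to 0.70.

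In ACKR4_KO replicate 3 the subunits spread widely, and those with the shortest transcripts, Ndufa1 and Ndufa3, were among the highest. The largest difference was that of Ndufa12, an accessory subunit of the N module, which stood at 38.0, 71.9 and 34.8 CPM in WT and 34.7, 102 and 249.9 CPM in ACKR4_KO. Its value in ACKR4_KO replicate 3 was 5.46 times the WT mean (the geometric mean, as for the ratios that follow). ACKR4_KO replicate 1 and WT replicate 3 were about level as the lowest of the 6 libraries. The log2 fold change was 1.42 with an SE of 0.71 (adjusted p = 0.691), and it was 0.51 without ACKR4_KO replicate 3. Ndufa1, Ndufs6 and Ndufv3, picked here after their values were seen, were also highest in ACKR4_KO replicate 3. Ndufa1, a small membrane subunit with the shortest mRNA among the subunits (419 bases), stood at 96.9, 90.3 and 84.8 CPM in WT and 87.5, 132 and 277 CPM in ACKR4_KO. ACKR4_KO replicate 3 stood at 3.05 times the WT mean for Ndufa1, 2.72 times for Ndufa3, 2.24 times for Ndufs6, a zinc-binding protein, and 2.15 times for Ndufv3. Not all of these transcripts are short, since that of Ndufa12 has 1110 bases and that of Ndufv3 has 1582. Ndufs1, with the longest mRNA but for Ndufb2 (2661 bases), stood at 0.849 times the WT mean in the same library.

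The coding sequences of Ndufa1 (213 bases, 70 codons before the stop, chromosome X) and Ndufa3 (255 bases, 84 codons, chromosome 7) are shown because they are the shortest-transcript members of that group. They come from the principal GENCODE M21 transcripts on GRCm38, 5′ to 3′, with the start and stop codons in capitals.
Ndufa1: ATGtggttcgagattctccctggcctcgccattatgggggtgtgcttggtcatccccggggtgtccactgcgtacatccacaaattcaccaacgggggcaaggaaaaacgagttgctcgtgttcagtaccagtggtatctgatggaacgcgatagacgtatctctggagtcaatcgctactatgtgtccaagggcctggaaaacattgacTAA
Ndufa3: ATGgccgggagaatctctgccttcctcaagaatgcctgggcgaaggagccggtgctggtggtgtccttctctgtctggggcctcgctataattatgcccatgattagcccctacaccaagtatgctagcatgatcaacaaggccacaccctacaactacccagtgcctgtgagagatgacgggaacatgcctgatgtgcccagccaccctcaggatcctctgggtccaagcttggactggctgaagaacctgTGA

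Lengths here are those of the principal transcript, and the length classes were set after the values were seen. In ACKR4_KO replicate 3, the 14 subunits under 750 bases had a median log2 difference from the WT mean of 0.56, the 10 from 750 to under 1200 bases 0.52, and the 11 of 1200 bases and over 0.21. In ACKR4_KO replicate 2 the same medians were 0.66, 0.71 and 0.64. Across the 35 subunits, which share the libraries, the correlation of the difference with log2 length was -0.339 (Spearman -0.406) in ACKR4_KO replicate 3, -0.0651 (Spearman -0.0268) in replicate 2 and 0.353 (Spearman 0.211) in replicate 1. These describe genes within a library and are not replicates.

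Short protein-coding genes in general were also higher in ACKR4_KO replicates 2 and 3. In replicate 3 the median difference from the WT mean was 0.62 over the 61 protein-coding genes under 500 bases, 0.33 over the 230 from 500 to under 750 bases, 0.12 over the 1187 from 1000 to under 1500 bases, and -0.05 over the 2628 of 5000 bases and over. In replicate 2 the same medians were 0.18, 0.25, 0.10 and -0.09, and in replicate 1 they ran the other way, at -0.05, -0.04, -0.07 and 0.08. With a smooth trend on length and GC content removed from each library, the subunit medians became 0.11, 0.63 and 0.35 in ACKR4_KO replicates 1, 2 and 3. All 35 subunits were still higher on average after this removal, with a median log2 fold change of 0.38. Over all genes, 57.5% were then higher, with a median of 0.0447. At an unadjusted p under 0.05, 14 subunits were counted after the removal, where 5.07% of all genes were higher. The plot of differences against transcript length sets the members beside this trend over all protein-coding genes.

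**Figure D2:**
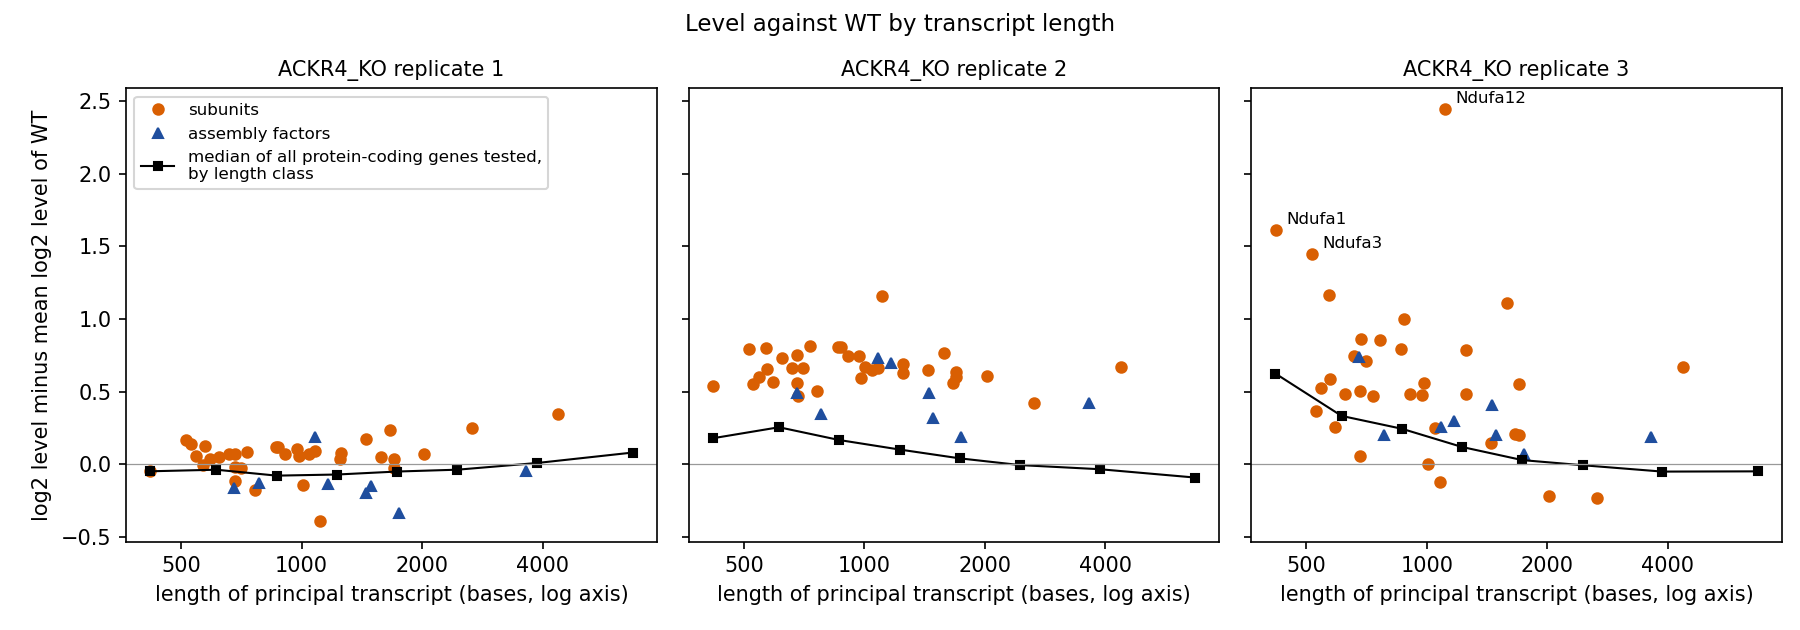
Log2 level minus the mean log2 level of WT (y axis) against the length of the principal transcript in bases (x axis, log scale), 1 panel per ACKR4_KO library, with subunits as circles, assembly factors as triangles and the medians of all protein-coding genes tested by length class as a line. In ACKR4_KO replicate 3 the line runs from 0.62 under 500 bases to -0.05 at 5000 bases and over, and Ndufa12 lies highest at 2.45.

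The 8 Ndufaf assembly factors were also mostly higher in ACKR4_KO, by less than the subunits. Of them 7 were higher and 1 lower on average, where 52% of all genes were higher. The median log2 fold change was 0.23 (from -0.02 to 0.42). Of the 8, 0 passed the test (edgeR's quasi-likelihood test, smallest adjusted p = 0.666, and 0 by DESeq2), where 0% and 0.271% of all genes did. An unadjusted p under 0.05 was reached by 1, Ndufaf6, where 7.45% of all genes reached it in either direction. The median was 0.08 without ACKR4_KO replicate 2 and 0.38 without ACKR4_KO replicate 1. By library, ACKR4_KO replicate 1 lay above all WT libraries for 1 of 8, replicate 2 for 8 and replicate 3 for 7. Over all genes, these shares were 28.2%, 35.4% and 34.2%. The median differences of the 8 from the WT mean were -0.14, 0.46 and 0.23. Summed over the 8, the level was 201, 212 and 180.2 CPM in WT and 179.9, 266 and 239 CPM in ACKR4_KO.

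Ndufaf6, a factor needed early for the matrix arm, stood at 11.5, 12.1 and 11.3 CPM in WT and 13.3, 19.5 and 14.0 CPM in ACKR4_KO. It was the only assembly factor whose groups did not overlap, where 6.53% of all genes were apart in the higher direction. Its log2 fold change was 0.42 (SE 0.18, adjusted p = 0.666), and it was 0.23 without ACKR4_KO replicate 2. Ndufaf2, which binds a late intermediate in place of Ndufa12, stood at 13.6, 13.3 and 12.1 CPM in WT and 11.6, 18.3 and 21.8 CPM in ACKR4_KO. ACKR4_KO replicate 3 was the highest library for both Ndufaf2 and Ndufa12. ACKR4_KO replicate 1 was the lowest for Ndufaf2, as it was for Ndufaf7 and Ndufaf8. For Ndufa12 it was level with WT replicate 3, at 34.7 and 34.8 CPM. The log2 fold change of Ndufaf2 was 0.41 (SE 0.23). For Ndufaf2 this was 0.20 without ACKR4_KO replicate 3 and 0.63 without ACKR4_KO replicate 1. Ndufaf5, an enzyme that hydroxylates Ndufs7 during assembly, stood at 14.5, 18.6 and 14.1 CPM in WT and 14.2, 25.5 and 19.3 CPM in ACKR4_KO. That gave it a log2 difference of 0.32 (SE 0.22), which was 0.10 without ACKR4_KO replicate 2 and 0.51 without ACKR4_KO replicate 1, and its groups overlapped.

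Ndufaf4, which acts with Ndufaf3 on the early Q module, had the highest CPM of the assembly factors, a level not corrected for length, at 41.2, 45.8 and 34.6 CPM in WT and 39.01, 54.1 and 45.9 CPM in ACKR4_KO. Ndufaf1, a factor of the membrane arm, followed by the mean over the 6 libraries, with 35.5, 33.6 and 28.2 CPM in WT and 28.1, 45.5 and 42.95 CPM in ACKR4_KO. Both had 1 knockout library among or below the WT libraries, and log2 fold changes of 0.19 (SE 0.16) and 0.26 (SE 0.19). Without ACKR4_KO replicate 2 these were 0.07 and 0.13, without WT replicate 3 they were 0.09 and 0.17, and without ACKR4_KO replicate 1 they were 0.30 and 0.45. Ndufaf7, a methyltransferase of the assembly pathway, had the smallest difference, with 25.1, 24.6 and 20.5 CPM in WT and 18.4, 26.5 and 24.4 CPM in ACKR4_KO. Its log2 fold change was -0.02 (SE 0.17), and it was 0.01 with the length and GC trend removed.

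To set the classes side by side, a score was taken per library as the mean over the genes of a class of the log2 CPM, each gene centred on its mean over the 6 libraries. The subunit scores were -0.24, -0.08 and -0.33 in WT and -0.16, 0.45 and 0.36 in ACKR4_KO. For the assembly factors they were -0.08, -0.003 and -0.23 in WT and -0.23, 0.36 and 0.19 in ACKR4_KO. In both classes ACKR4_KO replicate 1 lay among the WT libraries and the other two above them. The subunit score minus the assembly factor score was -0.16, -0.08 and -0.10 in WT and 0.07, 0.10 and 0.17 in ACKR4_KO, so that the groups did not overlap. The means were -0.11 ± 0.04 (SD, n = 3) and 0.11 ± 0.05 (SD, n = 3), a difference of 0.22. No p is given for it, because the members were chosen with results of these data known. With the length and GC trend removed the difference of scores was 0.19. The medians of the log2 fold change then came closer, at 0.38 for the subunits and 0.27 for the assembly factors, against 0.44 and 0.23 before.

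**Figure D3:**
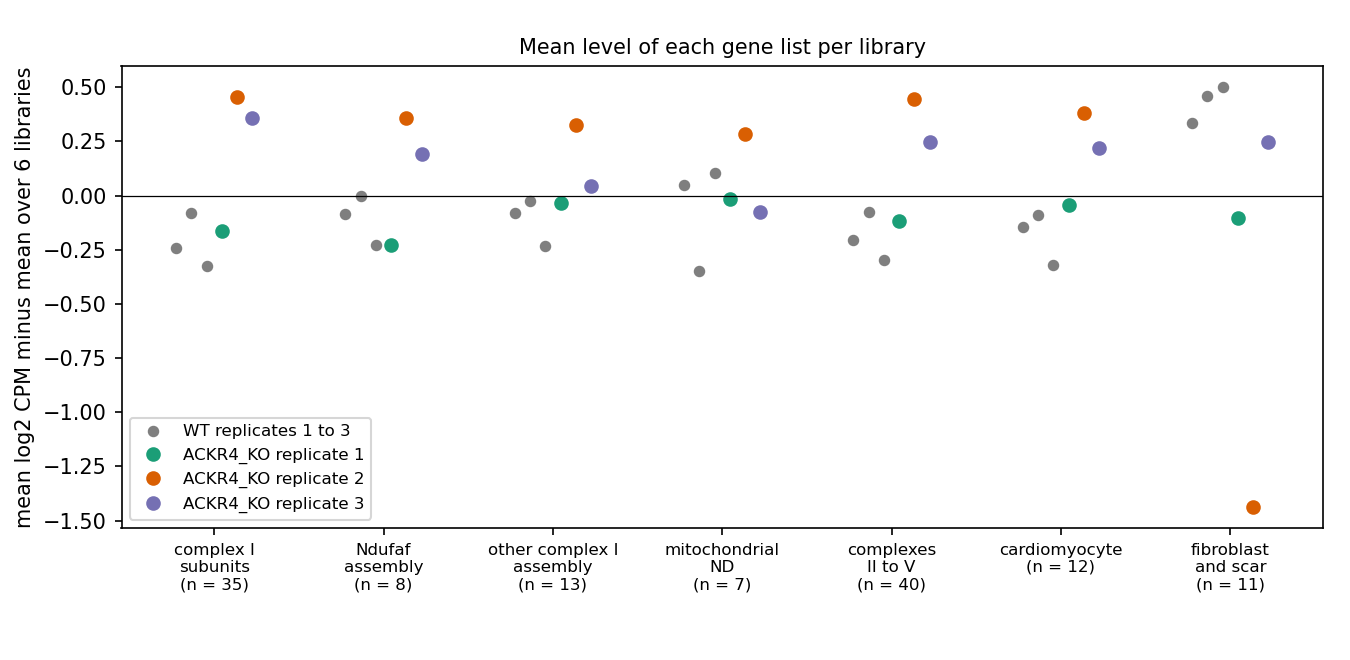
Mean log2 CPM of each gene list minus its mean over the 6 libraries (y axis), with 1 point per library, for the complex I lists, complexes II to V, and cardiomyocyte and fibroblast and scar markers. Subunit scores of ACKR4_KO replicates 2 and 3 (0.45 and 0.36) lie above the 3 WT libraries, and the fibroblast and scar score of ACKR4_KO replicate 2 is the lowest at -1.44.

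Cell type markers also differed between the libraries, and none of the lists below had a member past edgeR's adjusted threshold. DESeq2 called 1 of their members, a fibroblast and scar marker that was lower in ACKR4_KO, where it called 0.271% of all genes. The 12 cardiomyocyte markers were all higher on average in ACKR4_KO, by a median of 0.42 on the log2 scale, and had scores of -0.14, -0.09 and -0.32 in WT and -0.04, 0.38 and 0.22 in ACKR4_KO. The order of the 3 knockout libraries was the same as for the subunits. Of the 11 fibroblast and scar markers, 9 were lower and 2 higher, and they summed to 11410, 12830 and 12410 CPM in WT and 10340, 4155 and 15380 CPM in ACKR4_KO. ACKR4_KO replicate 2, where the subunits were highest, had the lowest summed scar level, and ACKR4_KO replicate 3 had the highest, although its scar score of 0.25 lay below those of WT (0.33 to 0.50). All 5 endothelial markers and all 7 macrophage and leukocyte markers were lower on average, with medians of -0.24 and -0.16. In whole tissue, more subunit RNA per cardiomyocyte and a larger share of cardiomyocytes cannot be told apart, and the part of these markers in the subunit differences was not tested.

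Most other genes listed for the respiratory chain were also higher on average in ACKR4_KO, where 52% of all genes were. At an unadjusted p under 0.05, 3.81% of all genes were higher and 7.45% differed in either direction. Of the 7 ND subunits encoded in mitochondrial DNA, which complete the membrane arm, 6 were higher and 1 lower on average. Their median was 0.14 on the log2 scale, with 0 at an unadjusted p under 0.05. Their medians against the WT mean were 0.07, 0.32 and -0.16 in ACKR4_KO replicates 1, 2 and 3, and by score replicate 3 (-0.07) lay within the WT range (-0.35 to 0.10). Of 14 assembly factors with other names, 13 were found, and all 13 were higher, with a median of 0.23, like the Ndufaf genes. Aifm1, an inner-membrane flavoprotein, was the 1 of them at an unadjusted p under 0.05. The 40 nuclear-encoded subunits listed for complexes II to V were all higher, with 16 at an unadjusted p under 0.05 and a median of 0.40. Subunits of these complexes that are encoded in mitochondrial DNA were not in that list. The medians were 0.21 for complex II, 0.29 for complex III, 0.48 for complex IV and 0.40 for complex V, and none of the 40 passed the test (edgeR's quasi-likelihood test, smallest adjusted p = 0.661). The complex I median of 0.44 lay within this range, and complex I was not tested against the others.

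Ndufa4, assigned to complex IV, stood at 553, 564 and 503 CPM in WT and 556.5, 851 and 746 CPM in ACKR4_KO, in the pattern of the subunits, with a log2 fold change of 0.41 (SE 0.19, adjusted p = 0.672). Ndufa4l2, its hypoxia-inducible relative, was lower in the knockout group, at 44.6, 55.6 and 52.1 CPM in WT and 39.01, 37.8 and 48.5 CPM in ACKR4_KO. Its log2 fold change was -0.28 (SE 0.14, adjusted p = 0.689), and ACKR4_KO replicate 3 overlapped the WT range. The pseudogenes Ndufb4c and Ndufs6b had between 0.646 and 9.25 CPM. In ACKR4_KO replicate 3 they stood at 2.77 and 3.33 times the WT mean, and the parent genes Ndufb4 and Ndufs6 at 1.39 and 2.24 times. Whether reads of the pseudogenes come from the parent genes was not tested. Ndufab1 and Ndufb1-ps, both outside the naming rule, gave the acyl carrier protein subunit and a locus that RefSeq calls Ndufb1. Ndufab1 had a log2 fold change of 0.30 (SE 0.18). Ndufb1-ps stood at 57.1, 62.1 and 62.0 CPM in WT and 57.8, 87.6 and 197 CPM in ACKR4_KO, with replicate 3 highest as for Ndufa12 and Ndufa1.

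Levels between genes were compared as CPM per kilobase of the principal transcript, in WT. Among the 28 accessory subunits, Ndufb10 was highest at 454 and the median was 222. Apart from Ndufb2 the lowest of them was Ndufa12 at 43.5. Ndufb2, a small distal subunit, was set at 4.04, from 13.2, 19.4 and 20.3 CPM in WT and 22.1, 27.7 and 27.6 CPM in ACKR4_KO. Its groups did not overlap, with a log2 fold change of 0.55 (SE 0.19). Its principal transcript here is 4371 bases long. Its exons overlap Gm42420 on the same strand (145 bases), and Braf (146 bases) and Gm16272 (156 bases) on the opposite strand, so this level is uncertain. Ndufc2, a membrane subunit, stood at 83.6, 80.1 and 70.9 CPM in WT and 77.1, 108 and 142 CPM in ACKR4_KO, or 115 per kilobase in WT. The assembly factors were lower, with a median of 16.3 and a range from 10.8 for Ndufaf6 to 42.1 for Ndufaf8. Ndufaf8 and Ndufa12 could not be ranked, since Ndufa12 stood at 34.3, 64.8 and 31.3 per kilobase in the WT libraries and Ndufaf8 at 40.1, 42.2 and 44.1, higher in 2 of 3. Exons of 18 members overlap those of another gene, 16 of them on the opposite strand, and no source used here gives the strand setting of the counting.

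**Figure D4:**
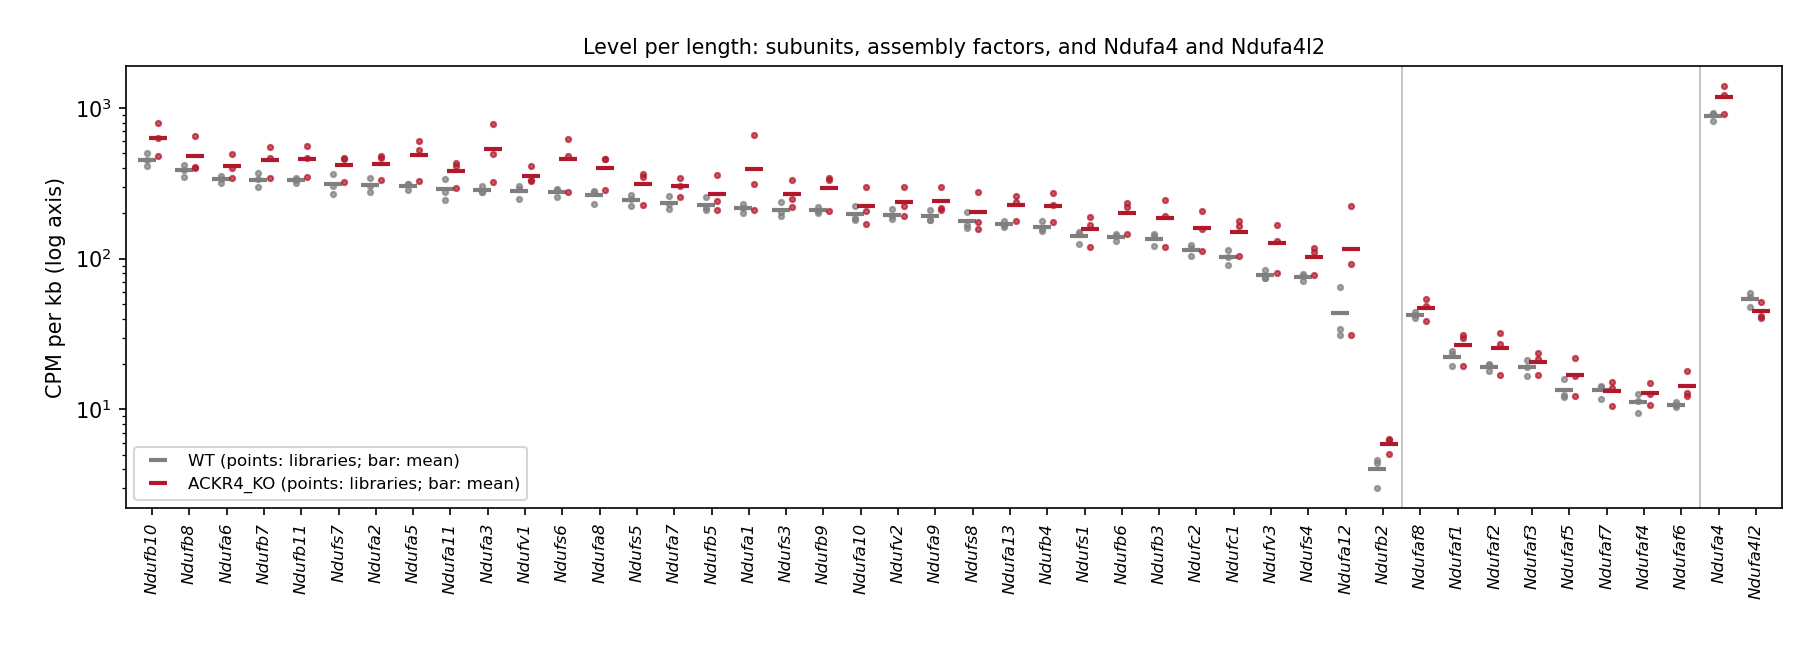
Level of the subunits, the assembly factors, and Ndufa4 and Ndufa4l2 (CPM per kilobase of principal transcript, log axis), each block in the order of the WT mean, with a point per library and a bar at the group mean. Accessory subunits other than Ndufb2 run from 43.5 to 454 and assembly factors from 10.8 to 42.1 in WT.

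Promoter sequences were searched because genes of the respiratory chain are known targets of NRF1, of oestrogen-related receptors (ERR), of ETS-family factors, of YY1 and of SP1. RefSeq windows on GRCm38.p6, from 250 bases before to 50 after the start, were found for 31 of 35 subunits and 7 of 8 assembly factors. The windows before the starts of Ndufa3, a subunit apart between the groups, and Ndufaf4, the assembly factor of highest CPM, are shown as examples. They lie at chr7:3617253-3617372 and chr4:24897963-24898082, both on the plus strand, and capitals mark NRF1 letters.
Ndufa3: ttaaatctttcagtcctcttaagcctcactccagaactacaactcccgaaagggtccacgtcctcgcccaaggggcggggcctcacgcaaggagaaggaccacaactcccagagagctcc
Ndufaf4: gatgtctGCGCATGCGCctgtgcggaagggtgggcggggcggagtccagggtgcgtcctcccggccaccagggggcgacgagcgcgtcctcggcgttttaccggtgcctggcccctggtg

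A gene was counted once if any of its windows held the letters, and some genes had more than 1 window. The shares over all are per window, so the measures are not quite alike. The NRF1 letters searched were GCATGCGC, on both strands. They were found for 3 of 31 subunits and 2 of 7 assembly factors, against 2.71% of all 32851 windows. In the Ndufaf4 stretch shown the matches on the plus and minus strands overlap. AAGGTCA (ERR) was found for 3 subunits and 0 assembly factors, against 4.72% of all windows, and CCGGAAG (ETS) for 4 and 2, against 8.86%. GGGCGG (SP1) was found for 14 and 6, against 35.7%. AAGATGG (YY1) was found for 7 and 1, against 6.34%. All of the YY1 subunit matches began 22 to 38 bases after the start, and these letters contain ATG, as a start codon does. A match describes letters only, and nothing about binding was measured.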

How the data were processed

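Heart RNA in 6 libraries was measured by RNA-seq, and the table the authors deposited holds raw counts of reads per gene. According to the submitters' processing notes, reads were handled with HTSeq 0.6.0, CASAVA 1.8.2 and HISAT2 on mm10, with no stated role or order. As for the annotation release and the strand setting, neither is given in the sources used here. Coordinates, biotypes and lengths were read from GENCODE M21, whose assembly GRCm38 is that of mm10. A length is that of the APPRIS principal transcript, the longest where several are tied or none is marked.

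Genes were kept by edgeR 4.0.16 filterByExpr (minimum count 10, total 15), scaled by TMM, and tested in R 4.3.3 with the quasi-likelihood test of edgeR (robust, two-sided) between ACKR4_KO and WT. Its p-values were adjusted by Benjamini and Hochberg's method across the 14406 genes, at a threshold of 0.05. CPM use TMM-scaled library sizes, and log2 CPM a prior count of 2. The scripts were tested on simulated data. Alternatives were DESeq2 1.42.0, other scalings and filters, removal of mitochondrially encoded and hemoglobin genes, a length and GC trend fitted with mgcv 1.9.3, a replicate block, and leaving out each library. Totals of 9422462 to 13910358 reads make 3 reads worth 0.207 to 0.309 CPM.

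The members, gene lists and tests were chosen with earlier results of these data known. Genes given with values were the 4 subunits and 3 assembly factors of smallest p, the core subunits, those of highest and lowest level and of largest and smallest log2 fold change, and Ndufa4 and Ndufa4l2; other named genes were added after their values were seen. The values of 1 member are not reported here and it is left out of the figures, but it is counted in the lists.

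Libraries of the same replicate number are not said to share a litter, batch or day, and were treated as unpaired.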

Additional observations from a re-analysis of the deposited data

How the results depend on the processing

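The direction of all 35 subunits was the same under the other scalings, filters and tools run, and under each left-out library except ACKR4_KO replicate 2, without which 32 were higher. No alternative brought a complex I member past the threshold. Over all genes, 39 passed with DESeq2, 24 with no filter on low counts and 6 with a replicate block, and 0 to 1 with a library left out (1 without ACKR4_KO replicate 3). Subunits whose groups do not overlap numbered 18 with the length and GC trend removed, with principal-transcript lengths and with the summed length of all annotated exons (both counts chosen after seeing the data), where 9.14% and 8.57% of all genes were apart and higher. With a library left out they numbered 8 to 28, where 8.82% to 15.5% of all genes were. Subunits at an unadjusted p under 0.05 numbered 3 to 27 with a library left out, where fewer samples enter the fit and 1.40% to 6.99% of all genes were higher at that level.

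Ndufaf7 turned to 0.01253 with the length and GC trend removed and to 0.05026 with the length of all annotated exons. With a library left out its log2 fold change ran from -0.12 to 0.13, that of Ndufs8 from -0.07386 to 0.37 and that of Ndufa10 from -0.06864 to 0.36. The cause was not tested. The subunit median ran from 0.30 to 0.61 and the assembly factor median from 0.08 to 0.38. Of the alternative values for the genes named by rule, 238 of the planned and added settings and 139 of the left-out libraries kept the direction, and 2 and 5 turned. Levels compared as plain CPM spanned 22.6-fold among accessory subunits, in place of 113-fold per kilobase, which was 10.5-fold without Ndufb2. The YY1 letters were in 0 subunit windows when only the 250 bases before the start were searched.

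Libraries of the same replicate number deviated together with correlations of 0.0665, 0.0527 and 0.125. The best correlation of each WT library with an ACKR4_KO library of another number was lower, at 0.0625, -0.00359 and -0.0132. All of these are small, and they cannot settle whether the numbers are a pairing. The libraries were treated as unpaired because no label gives a pairing. The replicate block left 0 members past the threshold and 19 at an unadjusted p under 0.05, the same number as without it, with a subunit median of 0.41. Leaving a group with 2 libraries, and 3 libraries a group with unequal spread, limits what any of these fits can show.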
